A study of Mus musculus with 11 samples.

Results

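Pfkp, Eno3, Fbp2, Ppp1r3c and Phkg1 code for enzymes and regulators of glucose breakdown and of the glycogen store. They were read from the 6 spots that carry their symbols, out of 12097 genes and unnamed spots tested. The genes were selected by measured values, since each had an adjusted p under 0.05 between dilated and wild-type hearts, so their values in that comparison are given as a description and support nothing. All 5 passed the filter on missing values, which asked for a ratio on at least 9 of the 11 arrays.

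The RNA came from the right and left ventricles and septum of 12 male C57/BL6 mice of the TG1306/1R line, about 60 weeks old and not treated. This line is known for cardiac overexpression of angiotensinogen, the precursor of angiotensin II. The Dil group held 4 heterozygous carriers (+/-) with a dilated heart, the Hyp group 4 heterozygous carriers (+/-) with concentric hypertrophy, and the WT group 4 littermates without the transgene (-/-). Dil and Hyp mice therefore share a genotype and were told apart by chamber shape, cardiac weight index and hypertrophic markers. The index, heart weight over body weight, was 7.8 to 9.2 mg/g in Dil mice, 5.3 to 5.8 mg/g in Hyp mice and 4.2 to 4.9 mg/g in WT mice. For Hyp mouse 3 the labels give 5.3 mg/g on 1 array and 5.6 mg/g on the other. It was treated as 1 mouse.

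Mice are numbered 1 to 4 in each group, and the mice that share a number are called a set. Each cDNA array compared 2 hearts of 1 set, 1 labelled with Cy3 and 1 with Cy5. There were 3 arrays of Dil against WT hearts, 4 of Dil against Hyp and 4 of Hyp against WT. The Dil and WT array of set 2 was not analysed here. Any Dil minus WT value given for set 2 therefore comes from its Dil and Hyp array and its Hyp and WT array. The ratios were taken as Cy5 over Cy3 on a log2 scale. Neither is stated in the sources used here, so the direction is only likely. Its basis is that the hypertrophy marker Nppb and Agt, the angiotensinogen gene, then come out higher in carriers, and the opposite direction would turn every sign printed here. If the values are natural logarithms, the folds are too small. A ratio gives no level, so the genes cannot be ranked by abundance and the tissue cannot be checked by marker levels.

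In glycolysis a cell splits glucose into pyruvate. Phosphofructokinase adds the phosphate that commits fructose 6-phosphate to this route, fructose bisphosphatase removes it again, and enolase makes phosphoenolpyruvate near the end. Glycogen is the branched glucose store of muscle. Protein phosphatase 1, brought to the particle by targeting subunits, favours its synthesis, and phosphorylase kinase switches on the phosphorylase that breaks it down. The adult heart burns mainly fatty acids, and a greater reliance on glucose is a known feature of the failing heart.

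The 5 genes lie on 4 chromosomes. Pfkp is at chr13:6579874-6649060, Fbp2 at chr13:62836884-62858400, Eno3 at chr11:70653125-70662513, Ppp1r3c at chr19:36731731-36736604 and Phkg1 at chr5:129863431-129879134 (GRCm38.p6, RefSeq). A promoter window of 300 bases, 250 before a transcript start and 50 from it on, was given for all 5. The windows of Ppp1r3c, the gene with the greatest difference between Dil and WT hearts among the 5, and of Fbp2 are shown because both hold CACGTG, the palindromic E-box, which stands in capitals. The Ppp1r3c window is chr19:36736555-36736854 and the Fbp2 window is chr13:62858351-62858650, both on the minus strand and printed 5′ to 3′.
Ppp1r3c: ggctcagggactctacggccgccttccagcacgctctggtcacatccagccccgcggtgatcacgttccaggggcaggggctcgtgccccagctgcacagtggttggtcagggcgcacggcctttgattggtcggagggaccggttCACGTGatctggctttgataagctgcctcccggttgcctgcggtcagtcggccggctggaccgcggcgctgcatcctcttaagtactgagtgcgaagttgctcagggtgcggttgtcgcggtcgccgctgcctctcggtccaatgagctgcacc
Fbp2: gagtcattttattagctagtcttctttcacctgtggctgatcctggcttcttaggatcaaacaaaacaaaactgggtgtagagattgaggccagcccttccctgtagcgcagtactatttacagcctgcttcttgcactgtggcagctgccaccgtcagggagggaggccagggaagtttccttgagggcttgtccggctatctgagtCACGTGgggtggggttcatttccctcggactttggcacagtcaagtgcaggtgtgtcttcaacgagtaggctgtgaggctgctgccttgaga

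The E-box began 104 bases before the start of Ppp1r3c and 42 bases before that of Fbp2. It is a common motif, held by 7.15% of all 32851 windows, and the 2 genes that hold it differed from WT in opposite directions. The shorter ACGTG, the core of the hypoxia response element, overlaps it, was in the same 2 windows and in 19.6% of all windows. CACCC, a core bound by KLF factors, was in all 5 windows and in 57.5% of all. CANNTG was in 4 of the 5, not in that of Pfkp, and in 72.3% of all. TATAAA (13.6% of all windows) and AAGGTCA (4.72%), a core bound by the estrogen-related receptors, were in 0 of the 5. Both strands were searched. The windows of Pfkp, Eno3 and Phkg1 lie at transcript starts inside the annotated gene span.

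Dil hearts had higher Pfkp and Ppp1r3c than WT hearts, and lower Eno3, Fbp2 and Phkg1. Of all 12097 features 2.15% passed in this comparison (1% higher and 1.15% lower in Dil), against 5 of 5 here by selection. Between Dil and Hyp hearts 0.165% of all features and 0 of the 5 genes passed. Between Hyp and WT hearts 0% of all features and 0 of the 5 passed, the lowest adjusted p of any feature there being 0.871 with 533 features at an unadjusted p under 0.05 (limma with Benjamini-Hochberg adjustment over all features). The Dil and WT comparison shares its Dil mice with 1 of the other comparisons and its WT mice with the other. The fitted change of each gene had the same sign in all 3 comparisons. In the fit the Dil minus WT change is the sum of the other 2, and the genes were selected by it. The shared signs are therefore not independent of each other or of the selection. Errors are standard errors of 1 fit over the 11 arrays with 4 mice per group.

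Pfkp codes for the platelet-type phosphofructokinase, an isoform found in many cells besides platelets. On the Dil and WT arrays its log2 ratio, Dil over WT, was 0.53 in set 1, 1.55 in set 3 and 1.28 in set 4. On the Dil and Hyp arrays the ratio, Dil over Hyp, was 0.09, 0.26, 0.75 and 1.20 in sets 1 to 4. All 7 arrays with a Dil heart thus lay above 0. They hold 4 Dil hearts, and the 3 with a WT heart belong to the comparison that selected the gene. Sets 3 and 4 lay above set 1 against WT and above sets 1 and 2 against Hyp. On the Hyp and WT arrays the ratio, Hyp over WT, was 0.36, 0.41, 0.14 and -0.12 in sets 1 to 4, above 0 on 3 of 4. The fitted log2 change was 0.96 ± 0.18 for Dil minus WT (1.95-fold, with the adjusted p of 0.0283 that selected it). Dil minus Hyp gave 0.67 ± 0.17 (1.59-fold, adjusted p = 0.185), and Hyp minus WT gave 0.29 ± 0.17 (1.22-fold, adjusted p = 0.999). The last 2 changes did not pass, and their 95% intervals were 0.30 to 1.05 and -0.08 to 0.67.

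The muscle isoform Pfkm did not pass, with a log2 change of -0.04 ± 0.16 for Dil minus WT (adjusted p = 0.938) and sets between -0.46 and 0.36. Pfkl, the liver-type isoform, had 0.49 ± 0.19 (adjusted p = 0.236). The difference between isoforms was not tested, nor was the binding of one isoform's cDNA to another's spot.

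Eno3 codes for the muscle enolase. Its log2 ratio, Dil over WT, was 0.09 in set 1, -0.42 in set 3 and -1.21 in set 4. Dil over Hyp it was -0.52, 0.22, -0.67 and -0.78 in sets 1 to 4, and Hyp over WT it was 0.09, -0.57, -0.45 and 0.17. The signs thus varied within each comparison, and both arrays above 0 with a Dil heart had that heart in Cy5. Eno3 carried a fitted dye effect of 0.28 towards Cy5, against a median size of 0.065 over all features. With this effect removed, the set estimates of Dil minus WT were -0.27, -0.35, -0.65 and -1.01, all 4 below 0. The fitted log2 change was -0.60 ± 0.13 for Dil minus WT (0.659-fold, selected at an adjusted p of 0.0468). It was -0.42 ± 0.13 for Dil minus Hyp (0.745-fold, adjusted p = 0.267) and -0.18 ± 0.13 for Hyp minus WT (0.884-fold, adjusted p = 0.999). Without the dye term the adjusted p for Dil minus WT was 0.14. Eno3 lay just inside the selecting threshold, and the glycolysis genes just outside it were Hk1 (0.54 ± 0.14, adjusted p = 0.0861), Pklr (-0.48 ± 0.13, 0.0975) and Ldhb (-0.52 ± 0.14, 0.0977). Of the other enolase genes Eno4 had -0.24 ± 0.16 for Dil minus WT (adjusted p = 0.517) and -0.33 for Dil minus Hyp, and Eno1 and Eno2 were not tested here.

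**Figure D1:**
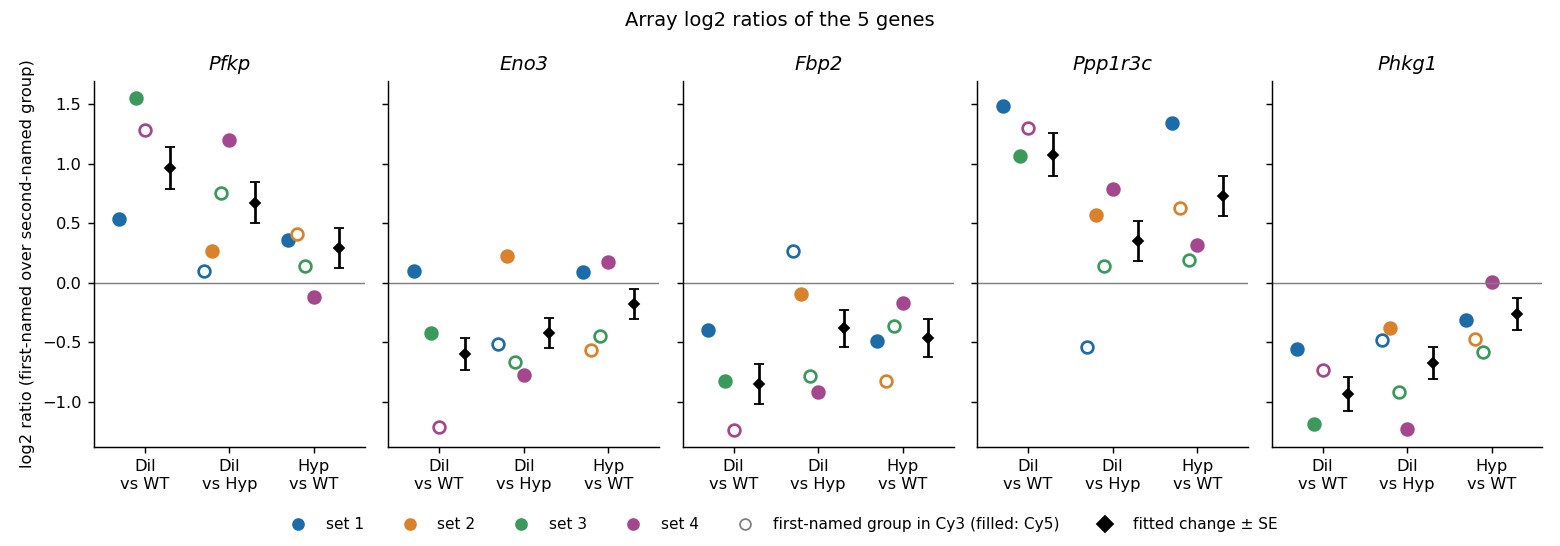
Log2 ratio of each array for the 5 genes, with the first-named group over the second (vertical axis, log2 units); colours mark the set, open circles mark arrays with the first-named group in Cy3, and diamonds with bars are the fitted changes ± SE. Pfkp lay above 0 and Phkg1 below 0 on all 7 arrays with a Dil heart, whereas Eno3 had arrays on both sides of 0 in each comparison.

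Fbp2 codes for the muscle fructose bisphosphatase, which opposes phosphofructokinase. Its mean over 2 spots, as log2 ratio Dil over WT, was -0.40 in set 1, -0.83 in set 3 and -1.24 in set 4. Dil over Hyp it was 0.26, -0.09, -0.79 and -0.92 in sets 1 to 4. Hyp over WT it was -0.49, -0.83, -0.37 and -0.17. Fbp2 was thus below WT on all 7 arrays that hold a WT heart, in Dil and in Hyp. These arrays share 4 WT hearts, and the 3 with a Dil heart belong to the comparison that selected the gene. Against Hyp the Dil heart was higher in set 1 and lower in the other 3 sets. The fitted log2 change was -0.85 ± 0.17 for Dil minus WT (0.555-fold, selected at an adjusted p of 0.0311). Dil minus Hyp gave -0.39 ± 0.16 (0.766-fold, adjusted p = 0.44), and Hyp minus WT gave -0.47 ± 0.16 (0.724-fold, adjusted p = 0.979, unadjusted p = 0.0126). The Hyp minus WT p-values are not independent of the selection, since the WT hearts are the same.

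The 2 spots of Fbp2 had the same sign on the Dil and WT arrays but not the same size. The spot in print block 17 read -0.17, -0.45 and -0.72 in sets 1, 3 and 4, and the spot in print block 29 read -0.62, -1.21 and -1.76. On the Dil and Hyp array of set 2 their signs differed (0.06 and -0.24). Each alone gave a log2 change of -0.59 (adjusted p = 0.102) and -1.11 (adjusted p = 0.0396), in that order, a comparison added after the data were seen. The spot in block 29 had no value on the array of WT1 and Hyp1. Fbp1, the liver isoform, had 0.06 ± 0.06 for Dil minus WT (adjusted p = 0.679).

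Ppp1r3c codes for a subunit that targets protein phosphatase 1 to glycogen. Its log2 ratio, Dil over WT, was 1.48 in set 1, 1.07 in set 3 and 1.30 in set 4. Hyp over WT it was 1.34, 0.63, 0.19 and 0.32 in sets 1 to 4. All 7 arrays with a carrier and a WT heart thus lay above 0. They share 4 WT hearts, and the 3 with a Dil heart belong to the comparison that selected the gene. Dil over Hyp the ratio was -0.55, 0.57, 0.14 and 0.79, with the Hyp heart higher in set 1. The fitted log2 change was 1.08 ± 0.18 for Dil minus WT (2.11-fold, selected at an adjusted p of 0.0173). For Hyp minus WT it was 0.73 ± 0.17 (1.66-fold, adjusted p = 0.871, unadjusted p = 0.00118), and this did not pass. By size it stood at place 12 of the 12097 features in Hyp minus WT, led by the Hyp heart of set 1. The WT hearts are those of the selecting comparison, so this place and p-value are not independent of the selection. The Dil minus Hyp change was 0.35 ± 0.17 (1.27-fold, adjusted p = 0.561), with a 95% interval of -0.02 to 0.72.

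Of the sister subunits, Ppp1r3b had a log2 change of -0.22 ± 0.11 for Dil minus WT (adjusted p = 0.375), with all 4 sets below 0. Ppp1r3d had -0.15 ± 0.11 (adjusted p = 0.556). Ppp1ca, Ppp1cb and Ppp1cc, the catalytic subunits they bind, lay between 0.01 and 0.17 and did not pass.

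Phkg1 codes for the muscle catalytic subunit of phosphorylase kinase. Its log2 ratio, Dil over WT, was -0.56 in set 1, -1.19 in set 3 and -0.73 in set 4. Dil over Hyp it was -0.48, -0.38, -0.92 and -1.23 in sets 1 to 4, so all 7 arrays with a Dil heart lay below 0. They hold 4 Dil hearts, and the 3 with a WT heart belong to the comparison that selected the gene. Hyp over WT the ratio was -0.31, -0.48, -0.58 and 0.01. The fitted log2 change was -0.94 ± 0.14 for Dil minus WT (0.523-fold, selected at an adjusted p of 0.0135). For Dil minus Hyp it was -0.67 ± 0.14 (0.627-fold, adjusted p = 0.0845), the closest of the 5 to the threshold there. For Hyp minus WT it was -0.26 ± 0.14 (0.835-fold, adjusted p = 0.999). The other subunits of the kinase did not pass. Phka1 had 0.15 ± 0.13, Phka2 -0.08 ± 0.06 and Phkb -0.10 ± 0.09 for Dil minus WT (adjusted p = 0.637, 0.565 and 0.636). Pygm, the muscle phosphorylase that the kinase acts on, had -0.30 ± 0.19 (adjusted p = 0.504), with 0.19, 0.01, -0.62 and -0.62 in sets 1 to 4.

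**Figure D2:**
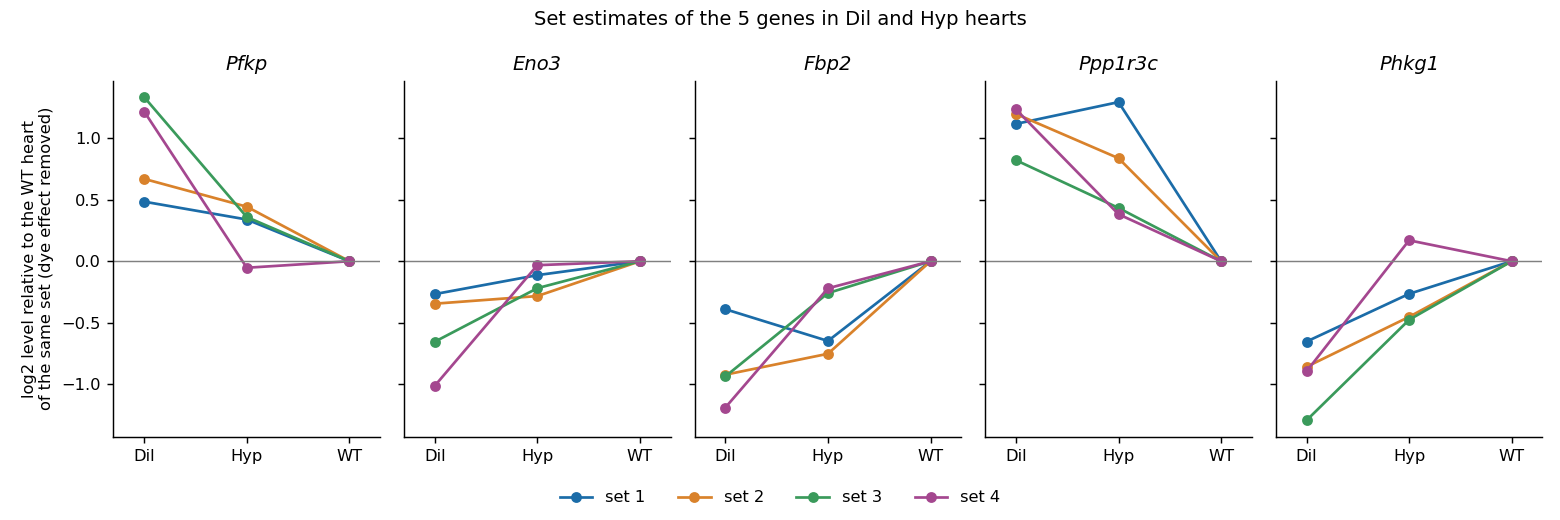
Set estimates of each gene in the Dil and Hyp hearts relative to the WT heart of the same set, which stands at 0 (vertical axis, log2 units, dye effect removed; each line is 1 set). In Dil hearts all 4 sets lay on 1 side of 0 for every gene, whereas in Hyp hearts set 4 was close to 0 or on the other side for Pfkp, Eno3 and Phkg1.

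The adjusted p-values that selected the genes rested on all 4 sets. Without set 3 no feature of the 12097 passed for Dil minus WT, with 1334 at an unadjusted p under 0.05. Without that set the changes of Pfkp, Eno3, Fbp2, Ppp1r3c and Phkg1 were 0.83, -0.58, -0.81, 1.19 and -0.77. Phkg1 passed without any of the other sets (adjusted p = 0.0363 to 0.0428). Pfkp and Fbp2 passed without set 1 only (adjusted p = 0.0428 and 0.0289), as did Ppp1r3c (0.0289), and Eno3 passed in none of these 4 fits (0.0652 to 0.342). Signs did not turn.

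Both carrier groups can be set beside each other for each gene. The Hyp minus WT change was 0.73 beside a Dil minus WT change of 1.08 for Ppp1r3c, and -0.47 beside -0.85 for Fbp2. It was 0.29 beside 0.96 for Pfkp, -0.18 beside -0.60 for Eno3 and -0.26 beside -0.94 for Phkg1. These changes share their WT hearts, so the Hyp minus WT values are not independent of the selection. The unadjusted p-values for Hyp minus WT (limma) were 0.00118, 0.0126, 0.116, 0.188 and 0.0783, in the order of genes given. Whether the genes differ in this respect was not tested.

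Over the 11 arrays the ratios of the 5 genes ran with or against each other. The cosine between the array ratios of 2 genes is an uncentred correlation. It stays the same if an array ratio is turned round for both genes, but a dye effect on a gene can change it. Once the fitted dye effect was removed, the cosine was between 0.746 and 0.949 in size for the 10 pairs. Pfkp ran opposite to Eno3 (-0.949), Phkg1 (-0.938) and Fbp2 (-0.925), and with Ppp1r3c (0.806). The lowest in size was that of Ppp1r3c and Phkg1 (-0.746). On the deposited ratios the sizes were 0.442 to 0.936, lowest for Eno3 and Ppp1r3c (-0.442). Since the genes were chosen for a Dil and WT difference and arrays of a set share hearts, these values describe the selection as well as the genes. All 5 genes also have a spot in the last row of a print block, and the part of this position was not tested.

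Among 6831 named genes with a value on all 11 arrays, the deposited ratios of Pfkp were most like those of Plp2 (cosine 0.979), Fstl1 (0.978), a secreted glycoprotein, and Panx1 (0.976), a membrane channel. Those of Eno3 were closest to Pccb (0.950), a subunit of propionyl-CoA carboxylase, Crip3 (0.948) and Gab1 (0.947), a signalling adaptor. With the fitted dye effect removed, the 3 closest to Eno3 were others, namely Eral1 (0.975), Dglucy (0.973) and Acss1 (0.970), and for each of the other 4 genes 1 of the 3 changed. Those of Fbp2 were closest to Slc40a1 (0.975), the iron exporter ferroportin, Gfra1 (0.967) and Nit2 (0.964). Slc40a1 shared with Fbp2 a similar size in each comparison, with log2 changes of -0.81 for Dil minus WT, -0.31 for Dil minus Hyp and -0.50 for Hyp minus WT. Those of Ppp1r3c were closest to Btbd10 (0.961), Wdr1 (0.925), an actin-binding protein, and Ccnd2 (0.904), a cyclin. Those of Phkg1 were closest to Lgals4 (0.974), a galectin, the carboxylesterase Ces1d (0.961) and Hadh (0.949), an enzyme of fatty acid oxidation.

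Of 36 listed glycolysis genes 23 were tested, and for Dil minus WT 1 was higher and 1 lower, namely Pfkp and Eno3. Of the 21 others 0 passed, beside 2.15% of all features. At an unadjusted p under 0.05 were 10 of the 23, both selected genes included, beside 1965 of the 12097 features. The 21 others went both ways, 12 above and 9 below 0, with a median log2 change of 0.01 beside 0.003 over all features. They ranged from Ldhb at -0.52 to Hk1, a hexokinase, at 0.54, and Hk1 lay above 0 in all 4 sets (0.40 to 0.85). The Dil minus WT changes of Gapdh (0.41 ± 0.13, adjusted p = 0.136) and Pgk1 (0.36 ± 0.10, adjusted p = 0.11) did not pass, and Aldoa, Pkm and Tpi1 lay between 0.00 and 0.06. For Dil minus Hyp and for Hyp minus WT 0 of 23 passed, with 5 and 0 at an unadjusted p under 0.05. Of the 12097 features 1166 and 533 were at such a p-value, in that order.

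The glycogen genes gave 2 further calls. Of 36 listed symbols 23 were tested, and for Dil minus WT 3 rose and 1 fell, of which Gyg and Ugp2 are not among the 5 genes. Without the 2 selected genes this is 2 of 21, beside 2.15% of all features. At an unadjusted p under 0.05 were 7 of the 23, the 2 selected genes included, beside 1965 of the 12097 features. Gyg, or glycogenin, starts a glycogen chain on itself. Its log2 ratio lay between 0.55 and 0.72 on the 3 Dil and WT arrays. On the 4 Dil and Hyp arrays it lay between 0.29 and 0.63. All 7 ratios were above 0, and these arrays hold 4 Dil hearts. On the Hyp and WT arrays Gyg lay between -0.04 and 0.06. It rose by 0.52 ± 0.07 for Dil minus WT (1.44-fold, adjusted p = 0.00967) and by 0.45 ± 0.07 for Dil minus Hyp (1.37-fold, adjusted p = 0.0348), where it was the 1 glycogen gene of 23 to pass (0.165% of all features did), while Hyp minus WT was 0.07 ± 0.07. Ugp2 makes UDP-glucose, the donor for glycogen synthesis. It rose by 0.54 ± 0.09 for Dil minus WT (1.46-fold, adjusted p = 0.0206), with ratios of 0.38 to 0.70 on the 3 arrays, and had 0.43 ± 0.09 for Dil minus Hyp (adjusted p = 0.0907) and 0.11 ± 0.09 for Hyp minus WT. The genes of the synthase and the branching enzyme did not pass, with 0.02 ± 0.15 for Gys1 and 0.17 ± 0.05 for Gbe1 (adjusted p = 0.967 and 0.151). For Hyp minus WT 0 of 23 passed, with 2 at an unadjusted p under 0.05, beside 533 of the 12097 features. The median over the 23 genes was 0.02 for Dil minus WT.

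The Gyg and Ugp2 calls also depended on single sets. The adjusted p of Gyg for Dil minus WT was 0.23 without set 3, 0.103 without set 4 and under 0.05 without either of the others, and for Dil minus Hyp it was between 0.0581 and 0.584 without any 1 set. That of Ugp2 was 0.0449 without set 2, and 0.0761, 0.232 and 0.146 without set 1, 3 or 4.

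**Figure D3:**
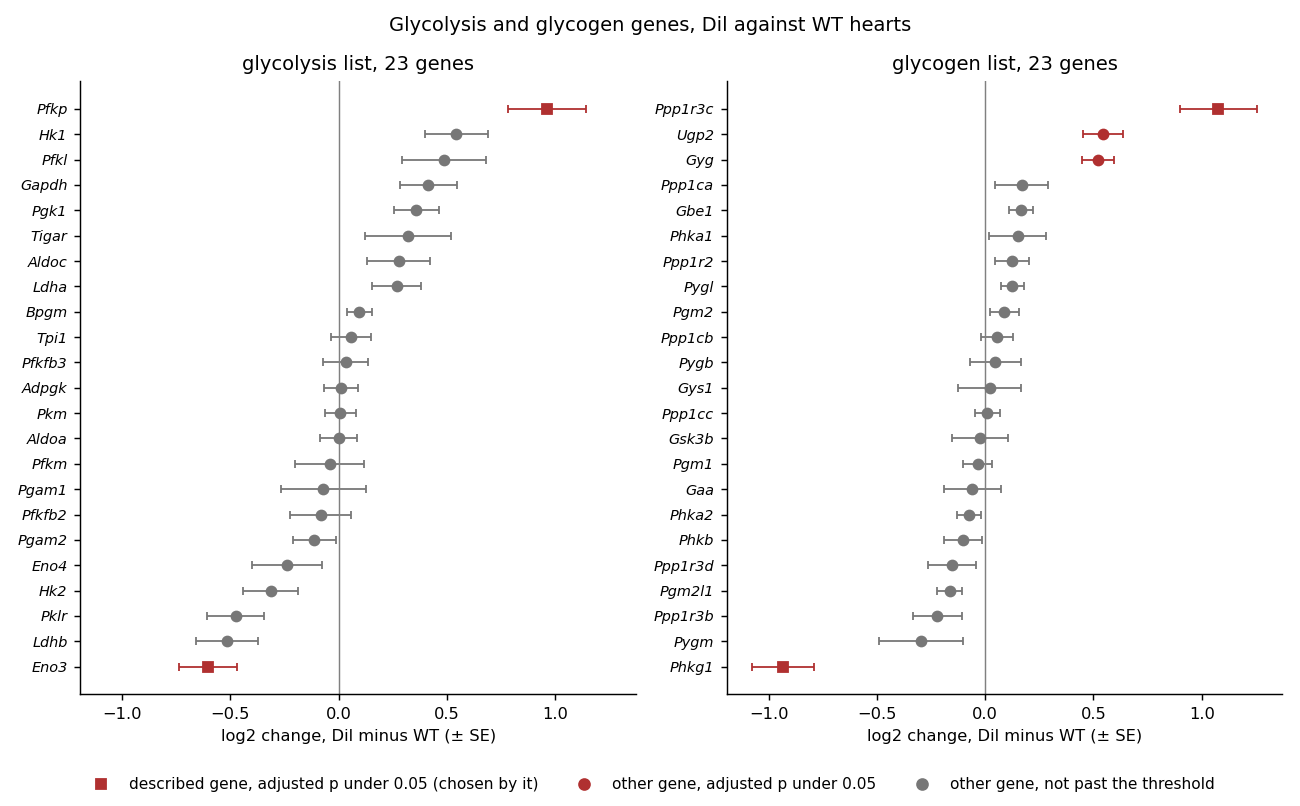
Log2 change, Dil minus WT, ± SE for the 23 tested genes of the glycolysis list (left) and the 23 of the glycogen list (right), in order of size. Squares are genes selected by this comparison, red marks an adjusted p under 0.05, and the values run from Eno3 at -0.60 to Pfkp at 0.96 on the left and from Phkg1 at -0.94 to Ppp1r3c at 1.08 on the right.

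In the neighbouring routes the shares that passed for Dil minus WT stand beside 2.15% over all features. Of 9 tested gluconeogenesis genes 0 rose and 1, Fbp2, fell. Fbp2 was selected by this comparison, and of the 8 others 0 passed. The next smallest p-values were those of Slc37a4, the glucose 6-phosphate transporter (-0.29 ± 0.10, adjusted p = 0.163), and Pck1 (-0.54 ± 0.25, adjusted p = 0.309), whose sets were -1.68, -0.10, -0.21 and 0.04. Of 8 subunits of the AMP-activated and cyclic AMP-dependent kinases, which have phosphorylase kinase and the control of phosphofructokinase among their targets, 1 fell and 0 rose. This was Prkar2b, a regulatory subunit of the cyclic AMP-dependent kinase (-0.52 ± 0.10, adjusted p = 0.0316), whose adjusted p was 0.138, 0.316 and 0.156 without set 1, 3 or 4. Prkar1a had 0.58 ± 0.14 (adjusted p = 0.057) and Prkab1 -0.43 ± 0.13 (adjusted p = 0.119).

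Of 13 genes of glucose and lactate transport and insulin signalling 0 passed for Dil minus WT. The lactate exporter Slc16a3 had 0.73 ± 0.17 (adjusted p = 0.0625), the glucose transporter Slc2a1 0.57 ± 0.16 (adjusted p = 0.103) and the monocarboxylate transporter Slc16a7 -0.28 ± 0.11 (adjusted p = 0.239). Txnip, an inhibitor of glucose uptake, had -0.61 ± 0.28 (adjusted p = 0.309). Slc2a4, the insulin-sensitive glucose transporter of muscle, had -0.37 ± 0.20 (adjusted p = 0.401). Of 15 genes of the pentose phosphate and side branches 0 passed, with Rpia, Pdk1 and Gpd2 at -0.18 ± 0.07, 0.35 ± 0.16 and -0.21 ± 0.10 (adjusted p = 0.245, 0.327 and 0.331). For Dil minus Hyp and Hyp minus WT 0 genes of these 4 lists passed.

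Marker genes of the cell types a ventricle can hold were read in the same comparison, and in whole tissue fewer cells of a type and less RNA per cell cannot be told apart. Of 10 fibroblast markers 9 were tested, 7 lay above 0 for Dil minus WT and 1 passed (Fbln2, 1.00 ± 0.23, adjusted p = 0.0486). Lum (-0.05 ± 0.13) and Pdgfra (-0.20 ± 0.10) lay below 0. The median of the 9 was -0.10, 0.12, 0.54 and 0.98 in sets 1 to 4. Pfkp had 0.48, 0.67, 1.33 and 1.22 there, and Eno3 had -0.27, -0.35, -0.65 and -1.01. Fbp2 had -0.39, -0.92, -0.94 and -1.19, and Phkg1 had -0.653, -0.858, -1.293 and -0.895. Ppp1r3c had 1.12, 1.20, 0.82 and 1.23, with its lowest value in set 3. The part of fibroblasts in the result was not tested.

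The platelet marker Ppbp had -0.85 ± 0.27 (adjusted p = 0.132), with -1.58 and -1.42 in sets 3 and 4. Its ratios on the 3 Dil and WT arrays ran from -1.66 to 0.07. The part of platelets in the Pfkp values was not tested. Alas2, the other tested marker of that list, had 0.35 ± 0.12. Of the 12 cardiomyocyte markers only Ryr2 (-0.33 ± 0.12, adjusted p = 0.207) and Fabp3 (-0.03 ± 0.15) were tested, and of the 12 skeletal muscle markers only Mylpf (-0.41 ± 0.10, adjusted p = 0.0794) and Actn3 (0.03 ± 0.09). The medians were -0.06 over 5 endothelial, -0.22 over 3 smooth muscle, 0.20 over 2 macrophage and leukocyte and -0.01 over 4 adipocyte markers, and 0 of these passed. The arrays of Dil3 with WT3 and of Dil4 with WT4 were also the most spread over all features, with scaled median absolute deviations of 0.335 and 0.354 against 0.115 to 0.250 for the other 9. With all arrays scaled to 1 spread, the Dil minus WT changes of Pfkp, Eno3, Fbp2, Ppp1r3c and Phkg1 were 0.67, -0.45, -0.63, 0.86 and -0.77.

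**Figure D4:**
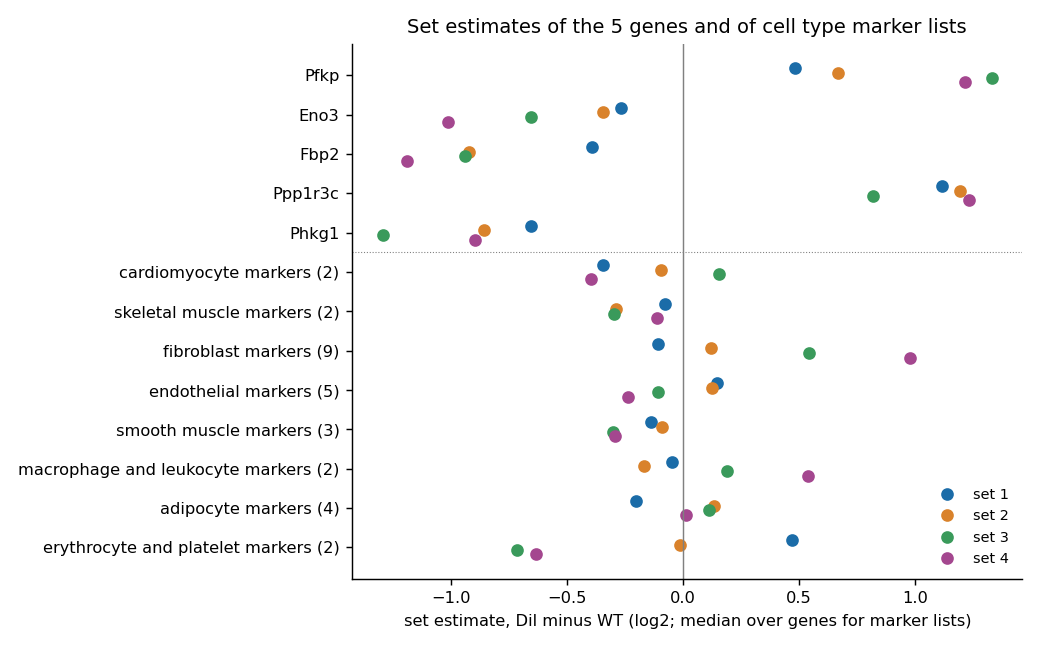
Set estimates of Dil minus WT (horizontal axis, log2 units) for the 5 genes and, below the dotted line, the median over each cell type marker list, with the number of tested markers in brackets. The fibroblast median was -0.10, 0.12, 0.54 and 0.98 in sets 1 to 4. Pfkp, Eno3, Fbp2 and Phkg1 lay further from 0 in sets 3 and 4 than in sets 1 and 2, and Ppp1r3c did not.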

How the data were processed

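The log2 ratios analysed are the authors' deposited values, 1 per spot and array. Their scanner, background correction and normalization are not stated in any label or header read here. Per the labels, 25 µg of total RNA per dye was reverse transcribed. Spots were named through the platform annotation and averaged per gene. Spot brightness was not used, so depth is unknown and the number of arrays limits precision.

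On the array of WT1 and Hyp1, values of 40 of the 46 rows of each print block lay 8 blocks on. These 11520 spots were moved back and 3840 left without a value. The correlation with the sum of the other set 1 arrays was then 0.807, against 0.488 as deposited. The rows to move were chosen by their correlation with the same sum, so this rise is no independent check. Of the 6 spots of the 5 genes, 5 lay in a row left in place (Spearman correlation 0.686 there, -0.014 at 8 blocks on). Each gene had a spot among these 5, and all of them lay in row 46, the last of the 46 rows of a print block. The share of all features with a spot in that row is not given here. For Fbp2 this was the spot in block 17, with -0.59 alone for Dil minus WT (limma, adjusted p = 0.102). The other Fbp2 spot, in row 21 of block 29, gave -1.11 alone (adjusted p = 0.0396). The effect of row 46 on the ratios was not tested.

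The model was a generalised least squares fit of both group differences and the dye, mice being random effects (shared variance ratio 0.303), with limma's eBayes (version 3.58.1, R 4.3.3) and Benjamini-Hochberg adjustment over 12097 features (8106 genes, 3991 unnamed spots) at 0.05. Residual degrees of freedom (8) count arrays, so errors can understate the spread between mice. The fit was also run on data simulated from the same model, which cannot test that model's own assumptions. Members and lists were chosen with earlier results of these data known. Named are the 5 genes, their measured paralogs, listed genes that passed (with the 3 smallest p-values of lists with 0 or 1 such gene), the 3 genes of highest cosine and cell type markers. Hk1, Pklr, Ldhb, Gapdh, Pgk1, Aldoa, Pkm, Tpi1, Pygm, Gys1, Gbe1, Slc2a4, Txnip, Eno4 and the phosphatase catalytic subunits were named after their values were seen.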

Additional observations from a re-analysis of the deposited data

Results flagged for a closer look

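Gyg had 1 Dil and Hyp array apart from the others. The log2 ratio, Dil over Hyp, was 0.626 in set 4, and its gap to the nearest of the other arrays was 0.864 of the whole range, above Dixon's critical value for 4 values. Chance marks about 1 in 20 such groups, and 16 groups were examined. All 4 ratios lay above 0, and the fitted change without set 4 was 0.38 (adjusted p = 0.276).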

How the results depend on the processing

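The log2 changes of the 5 genes in the 3 comparisons kept their sign in 225 of 225 values from 15 alternatives each, and 223 stayed within 1 SD of the sets. The exceptions are Ppp1r3c for Dil minus WT, at 1.288 (adjusted p = 0.0639) from the direct arrays and 0.862 (0.0999) with arrays scaled to 1 spread. The adjusted p for Dil minus WT was under 0.05 in 12 of 15 alternatives for Phkg1, 10 for Pfkp and Ppp1r3c, 8 for Fbp2 and 6 for Eno3. For Dil minus Hyp it was so in 1 for Phkg1 (0.0465). All 15 alternatives reuse these arrays or part of them, and Dil minus WT is the comparison that selected the genes. The kept signs and the counts for Dil minus WT are therefore a description and support nothing. Among the 15, the filters on missing values (all 11 or at least 6 arrays) could not move the log2 changes of the 5 genes. The median over spots hardly could, since each gene has 1 or 2 spots. The features passing numbered 260 for Dil minus WT and 20 for Dil minus Hyp. From the direct arrays alone, which are fewer, 7 and 0 passed, with 0 glycolysis and 0 glycogen genes for Dil minus WT and 0 glycogen genes for Dil minus Hyp. With 1 estimate per set as a replicate block 6 and 0 passed, with 0 and 1 genes for Dil minus WT, Ppp1r3c being that glycogen gene, and 0 glycogen genes for Dil minus Hyp. There the adjusted p of Gyg was 0.0839 for Dil minus WT and 0.367 for Dil minus Hyp, and that of Ugp2 0.0879 for Dil minus WT. Without the WT1 and Hyp1 array 159 and 7 passed, with 1 glycolysis gene for Dil minus WT and 0 glycogen genes for Dil minus Hyp. With scaled arrays 99 passed for Dil minus WT, with 1 glycolysis and 2 glycogen genes. For Dil minus Hyp 52 passed without the mouse effect, 41 with the WT1 and Hyp1 column as deposited, and 43 without the dye term, which gave 1 glycolysis gene for Dil minus WT and 2 glycogen genes for Dil minus Hyp. Leaving out a set gave 0 to 121 features for Dil minus WT and 0 to 15 for Dil minus Hyp. For Dil minus WT it gave 0 to 1 glycolysis and 0 to 3 glycogen genes, and for Dil minus Hyp 0 glycogen genes. The cause of these differences was not tested. Each array pairs mice of 1 number, so whether numbers pair hearts beyond this could not be checked.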
